A study of Mus musculus with 6 samples.

Results

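The Slc25 family of solute carriers, the transporters that carry metabolites across the inner membrane of mitochondria, was followed gene by gene in RNA sequencing of mouse vascular smooth muscle cells. Its members were taken by symbol and biotype alone, as the protein-coding genes whose symbol starts with Slc25a, which gave 47 genes of the 54532 listed and of the 22046 listed as protein coding. A further gene with such a symbol was a pseudogene and was left out. The rule uses no expression value. The series held 6 libraries in 2 groups of 3. The Ad-Con libraries came from cells given an adenoviral vector with a control plasmid, and the Ad-PDK4 libraries from cells given an adenoviral vector with an overexpression plasmid for pyruvate dehydrogenase kinase 4, a mitochondrial kinase that switches off the pyruvate dehydrogenase complex. Both groups were of wild-type genotype, grown in DMEM with fetal bovine serum, and the cells had been isolated from the abdominal aorta of 10-week-old wild-type mice. Both also received angiotensin II according to the study's results, a treatment that the labels do not mention, so that no library here shows either vector without it. Serum starvation of such cells is described in the study's methods for in vitro work, without naming RNA sequencing. The medium at harvest may therefore have been free of serum. The study's methods describe cloning of PDK4 into a pEnCMV plasmid with a primer pair that its supplement lists for the mouse gene, and the promoter of the adenoviral vector was not given in the sources used here. The study calls the libraries of each group biological replicates. Whether they came from separate animals or separate cultures was not given, and the p-values measure the spread between these libraries.

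Carriers of this family share a fold built from repeats of membrane-spanning helices, and most of them exchange a solute of the cytosol for one of the matrix. They supply ADP and phosphate to the ATP synthase, send ATP and citrate out, run the malate-aspartate shuttle, and bring in amino acids, carnitine esters, iron, glutathione, nucleotides and cofactors that the matrix cannot make. Each carrier is encoded in the nucleus, and several substrates are served by a pair of paralogs whose balance differs between tissues. Pyruvate, the substrate of the complex that PDK4 inhibits, enters by a carrier of another family, MPC.

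The libraries held 17588942 to 21861872 reads each. The values are FPKM, fragments per kilobase of gene relative to library size, already made comparable between libraries by the authors, so that levels of different genes can be set side by side per unit of length. The level of Pdk4, the 1 check made of the labels, went against them. Pdk4 stood at 9.50, 10.4 and 10.2 FPKM in the Ad-Con libraries and at 7.67, 7.41 and 7.38 FPKM in the libraries labelled Ad-PDK4, a log2 difference of -0.42 (adjusted p = 0.00114, limma), and every direction given below is therefore one between libraries as labelled. Of 9 smooth muscle markers, 3 passed the filter on low values, namely Acta2, Smtn and Lmod1, while Myh11 had 2 to 10 reads and Tagln 4 to 20 reads per library. The summed FPKM of this list was 87.8 to 89.5 in Ad-Con and 43.3 to 48.2 in the libraries labelled Ad-PDK4, a difference carried mostly by Acta2 (means of 78.0 and 36.2 FPKM), while Smtn (8.32 and 8.44 FPKM) and Lmod1 (0.720 and 0.570 FPKM) were not called. Under the filter, Mylk (0.756 and 0.123 FPKM), Cnn1 (0.466 and 0.247 FPKM) and Des (0.186 and 0.0468 FPKM) were lower without overlap. Myh11, Tagln and Myocd, also under it, had overlapping groups. The sum of 5 fibroblast markers was 1136 to 1219 and 599 to 668 FPKM, mostly Col1a1 (means of 1055 and 435 FPKM), and its members went both ways: Col1a1, Lum and Thy1 fell, Dcn rose (90.1 and 160.6 FPKM, log2 fold change 0.83) and Pdgfra was not called (20.5 and 19.9 FPKM). The summed FPKM of 8 macrophage markers, of which Ptprc, Tyrobp, C1qa and C1qb had 0 reads in every library, was 14.97 to 17.94 and 5.91 to 7.45. Cd68 made up 86.2 to 90.6% of this last sum in Ad-Con and 52.4 to 66.0% in the others, while Lyz2 (means of 1.51 and 1.98 FPKM) was not called and Csf1r (0.258 and 0.640 FPKM) was under the filter. Endothelial markers summed to 0.617 to 0.798 and 0.885 to 1.18 FPKM, and adipocyte markers to 0.190 to 0.413 and 0.153 to 0.339 FPKM. Reads of mitochondrially encoded genes made up 2.59 to 2.76% of all reads in Ad-Con and 1.11 to 1.53% in the libraries labelled Ad-PDK4. By RT-qPCR the study reports lower expression of such genes in cells given Ad-PDK4 and angiotensin II. It also reports less mRNA of contractile markers, Acta2 among them, in aortas of mice given AAV-PDK4. The part of the differences in markers and mitochondrial reads in the results below was not tested, and fewer cells of a type cannot be told apart from less RNA per cell.

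Levels within the family ran from 0 reads in every library to a mean of 196.5 FPKM over the 6 libraries in Slc25a4, the most abundant member. In all, 5 members exceeded 50 FPKM, namely Slc25a4, Slc25a3, Slc25a5, Slc25a1 and Slc25a39. A further 17 members lay between 5 and 50 FPKM and 25 below 5 FPKM. The 3 most abundant members held 53.0% of the summed FPKM of the family in Ad-Con and 48.4% in the libraries labelled Ad-PDK4 (means of 3 libraries). Together the 47 genes summed to 920, 913 and 935 FPKM in the Ad-Con libraries and to 744, 774 and 761 FPKM in the libraries labelled Ad-PDK4. The group means were 923 ± 11.3 and 760 ± 15.3 FPKM (SD, n = 3), a ratio of 0.823, and the groups did not overlap. Without the 3 most abundant members the sums were 434 ± 1.43 and 392 ± 10.6 FPKM, a ratio of 0.902.

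**Figure D1:**
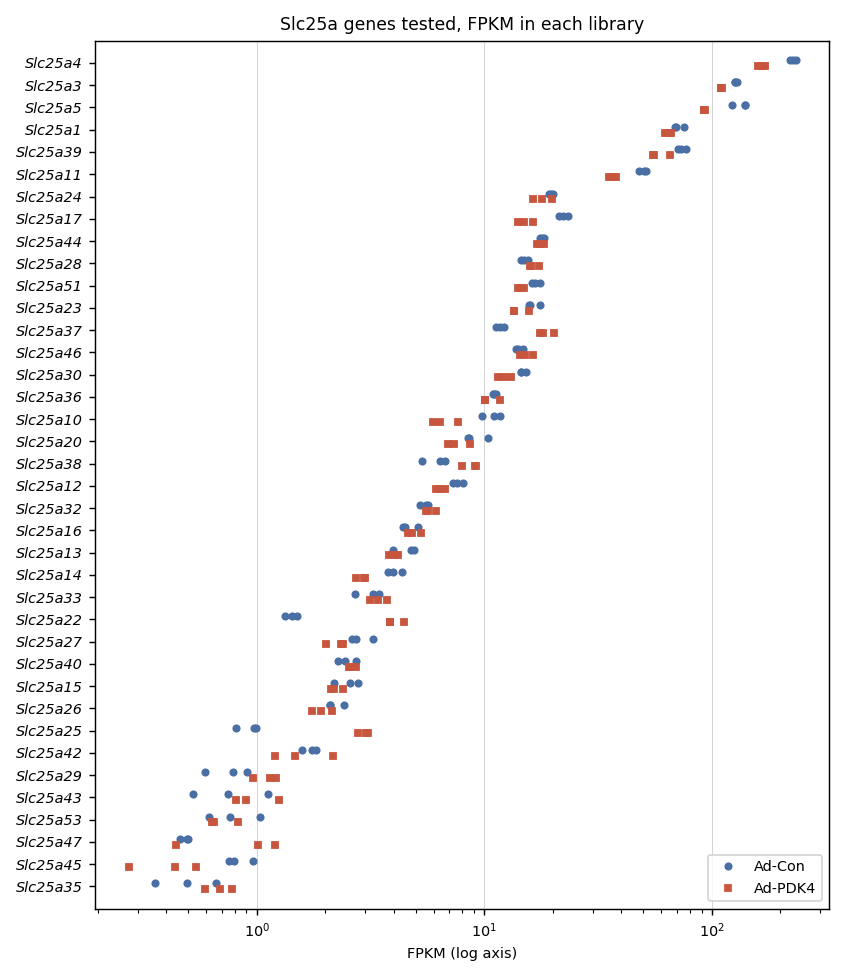
FPKM (log axis) of 38 of the 39 Slc25a genes that passed the filter on low values, ordered by mean level, with 1 point per library (circles Ad-Con, squares Ad-PDK4, 3 each). The 6 most abundant genes at the top have their squares to the left of the circles, and Slc25a25 and Slc25a22 stand out with squares far to the right.

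Of the 47 members, 39 had a mean FPKM over the 6 libraries of at least 0.5 and were tested. The last genes inside this limit were Slc25a45 (0.626 FPKM) and Slc25a35 (0.595 FPKM), and the first outside were Slc25a18 (0.320 FPKM) and Slc25a2 (0.0656 FPKM). With an adjusted p below 0.05 in limma over all 13423 genes tested, 5 members were higher in the libraries labelled Ad-PDK4, 12 were lower and 22 were not called. The 5 make up 12.8% of the members tested, beside 21.8% of all genes tested that were called higher, and the 12 make up 30.8%, beside 20.8% of all genes called lower. With a fold change of at least 2 as well, 2 members were higher, Slc25a25 and Slc25a22, and none was lower, beside 3.95% and 2.68% of all genes. All 17 called members had groups that did not overlap. Counting every member with groups that did not overlap gave 7 higher (17.9%) and 15 lower (38.5%), where 27.8% and 26.5% of all genes did so. The median log2 fold change, on the scale of log2(FPKM + 0.1), was -0.15 over the 39 members and -0.003 over all genes tested, and 61.5% of the members had a negative value, as had 50.4% of all genes.

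A separate fit, with its own adjustment, covered the 7731 genes of the whole table with a mean of at least 5 FPKM. In it, 27.97% were higher and 24.3% were lower. The family had 22 such members, of which 3 were higher and 11 were lower in this separate fit, with a median log2 fold change of -0.21 beside 0.01 for all genes at that level. The 11 include Slc25a1, which the main fit over 13423 genes did not call. In the main fit, of the 16 members at 10 FPKM or more, 8 were lower and Slc25a37 alone was higher. The share of all genes called at 10 FPKM or more was not computed, so these counts have no background beside them. Below 5 FPKM the calls of the main fit were Slc25a25 and Slc25a22, which were higher, and Slc25a45 and Slc25a14, which were lower.

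**Figure D2:**
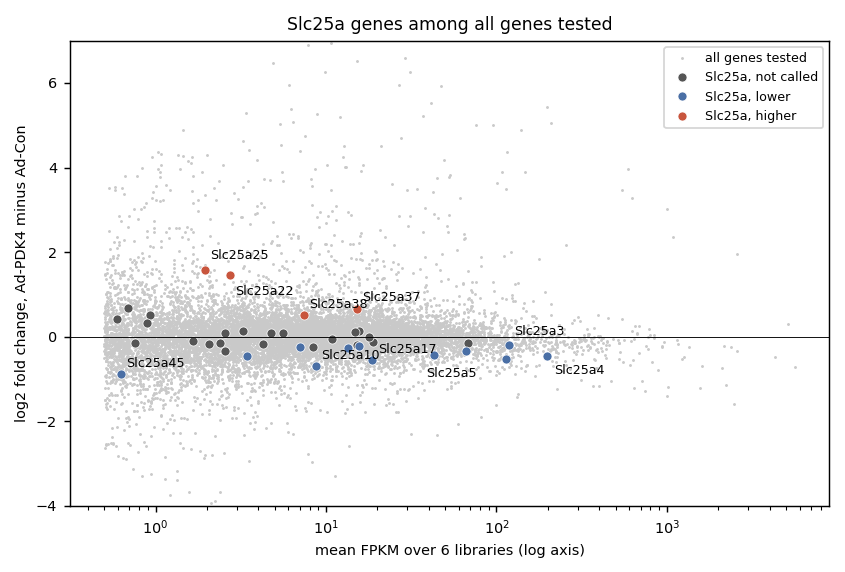
Log2 fold change (Ad-PDK4 minus Ad-Con, on log2(FPKM + 0.1)) against mean FPKM over 6 libraries (log axis) for all genes tested (grey) and 38 of the Slc25a genes (coloured by call). Of the 12 lower calls of the family 8 lie at 10 FPKM or more, a level at which the share of all genes called was not computed. The points of 5 genes of the whole table fall outside the drawn range.

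Adenine nucleotide and phosphate carriers formed the largest share of the family, 57.0% of its FPKM in Ad-Con and 53.1% in the libraries labelled Ad-PDK4. Of these 9 genes 6 were tested, 3 were lower and 1 was higher. Call counts of this class and of the classes below stand beside 20.8% of all genes tested called lower and 21.8% called higher. Slc25a4, the ADP/ATP carrier typical of heart and muscle (chr8:46206797-46211284, GRCm38, minus strand), read 221, 228 and 234 FPKM in the Ad-Con libraries and 160, 170 and 165 FPKM in the libraries labelled Ad-PDK4. Its groups were far apart, with a log2 fold change of -0.46 ± 0.05 (SE) and an adjusted p of 0.000175 in limma. Slc25a5, the ADP/ATP carrier of proliferating cells (chrX:36795651-36798807, plus strand), read 139, 123 and 140 FPKM against 92.5, 92.5 and 93.3 FPKM. It fell by 0.53 on the log2 scale (SE 0.06, adjusted p = 0.000289, limma). Its reads are uncertain in part, since 72.3% of its longest transcript matched 3 pseudogenes at 95% identity or more.

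Slc25a3, the phosphate carrier that brings in the phosphate for ATP synthesis (chr10:91116574-91124059, minus strand), read 126, 126 and 128 FPKM in the Ad-Con libraries and 111, 110 and 109 FPKM in the libraries labelled Ad-PDK4. The difference was small and the libraries of each group lay close together, with a log2 fold change of -0.21 ± 0.04 (SE) and an adjusted p of 0.00425 in limma. In Ad-Con the ranges of Slc25a3 and Slc25a5 overlapped, whereas in the libraries labelled Ad-PDK4 every value of Slc25a3 lay above every value of Slc25a5. Slc25a4 made up, of the sum of both ADP/ATP carriers, 61.3, 65 and 62.6% in the Ad-Con libraries and 63.4, 64.8 and 63.9% in the others. This share differed by 1.07 percentage points with overlapping groups (exact two-sided permutation test, p = 0.5, 0.6 after adjustment over 6 pairs). With 3 libraries against 3 this test cannot give a p below 0.10. The third ADP/ATP carrier gene, Slc25a31, a germ cell form, had 1 read in a single Ad-Con library.

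Of the calcium-regulated carriers that exchange ATP-Mg for phosphate, 3 were tested and Slc25a25 was the one called. Slc25a25 (chr2:32414487-32451445, minus strand) read 0.975, 0.811 and 0.996 FPKM in the Ad-Con libraries and 2.78, 3.07 and 3.02 FPKM in the libraries labelled Ad-PDK4, on 112 to 525 reads. The lowest library labelled Ad-PDK4 was well above the highest Ad-Con library, and this was the largest rise in the family, with a ratio of mean FPKM of 3.19, a log2 fold change of 1.58 ± 0.13 (SE) and an adjusted p of 4.84e-05 in limma. Its paralog Slc25a24 read 19.2 to 20.1 FPKM in Ad-Con and 16.3 to 19.9 FPKM in the libraries labelled Ad-PDK4 and was not called (log2 fold change -0.13, 95% interval -0.30 to 0.05, adjusted p = 0.223, limma). Slc25a23 was likewise not called at a log2 fold change of -0.20 (95% interval -0.39 to -0.02, adjusted p = 0.0749, limma), although its groups did not overlap. Slc25a25 made up 2.27 to 2.70% of the summed FPKM of these 3 genes in Ad-Con and 8.14 to 8.73% in the libraries labelled Ad-PDK4, while their sum was 36.9 ± 1.19 and 35.2 ± 1.09 FPKM (SD, n = 3). The annotation places 4.82% of the exon bases of Slc25a25 under Naif1 on the other strand, and Naif1 differed by -0.15 on the log2 scale (adjusted p = 0.260, limma). Slc25a41 had at most 1 read per library and Slc25a54 at most 3.

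RefSeq lists 3 start sites for Slc25a25 on GRCm38.p6, and values per gene do not show which of them was in use. The upstream sequence is shown for the start at position 32424066 of chromosome 2, 27404 bases downstream of the first, because it holds a full cAMP response element, and that of Slc25a5 beside it as an abundant gene that fell. Capitals mark motif matches on either strand, TGACGTCA for the cAMP response element and CCAAT (or its reverse complement) for the CCAAT box. The response element begins 150 bases before the Slc25a25 start and the CCAAT box 78 bases before it, and the window is chr2:32424067-32424316 on the minus strand, with 51.6% G and C. The Slc25a5 window is chrX:36795347-36795596 on the plus strand, with 61.6% G and C, and holds none of the 8 motifs searched. Other members that fell differ in this. Slc25a4 and Slc25a17 hold a CCAAT box and Slc25a14 an E-box (CACGTG), while Slc25a3 and Slc25a39 hold none of the motifs. The windows shown are thus no contrast between members that rose and members that fell.
Slc25a25: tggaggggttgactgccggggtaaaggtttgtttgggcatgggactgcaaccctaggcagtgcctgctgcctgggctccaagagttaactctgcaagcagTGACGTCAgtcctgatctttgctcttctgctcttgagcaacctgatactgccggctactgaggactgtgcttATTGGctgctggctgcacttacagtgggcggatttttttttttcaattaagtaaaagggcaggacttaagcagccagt
Slc25a5: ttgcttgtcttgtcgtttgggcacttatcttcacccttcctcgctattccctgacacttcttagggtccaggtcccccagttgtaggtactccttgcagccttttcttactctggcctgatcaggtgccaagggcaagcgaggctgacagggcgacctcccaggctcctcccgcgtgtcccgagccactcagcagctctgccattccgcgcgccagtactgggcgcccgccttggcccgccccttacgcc

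Over the whole promoter table of RefSeq, from 250 bases before to 50 bases after each start, 36 members were found, with 46 promoters among 32851. A cAMP response element stood in the promoters of 2 of the 36 members, Slc25a25 and Slc25a36, and in those of 2.03% of all genes. Slc25a36 was not called. The CCAAT box was found in 19 members (52.8%) and in 41.1% of all genes, and the E-box CACGTG in 7 members (19.4%) and in 8.09% of all genes. A match to the interferon-stimulated response element, written TTTCNNTTTC, was found in 2 members, Slc25a15 and Slc25a22, and in 3.99% of all genes. The NRF1 core GCATGCGC stood in 2 members, Slc25a31 and Slc25a54 (5.56%, beside 3.05% of all genes), and the TATA box TATAAA in 2, Slc25a18 and Slc25a21 (5.56%, beside 15.7%), all 4 of them under the filter on expression. No member held TCAAGGTCA, the element of estrogen-related receptors, or TTGCATCA, an element of ATF4 with C/EBP, which 0.466 and 1.03% of all genes held. None of the motifs searched is contained in another, and a match is a string and not a shown binding site.

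**Figure D3:**
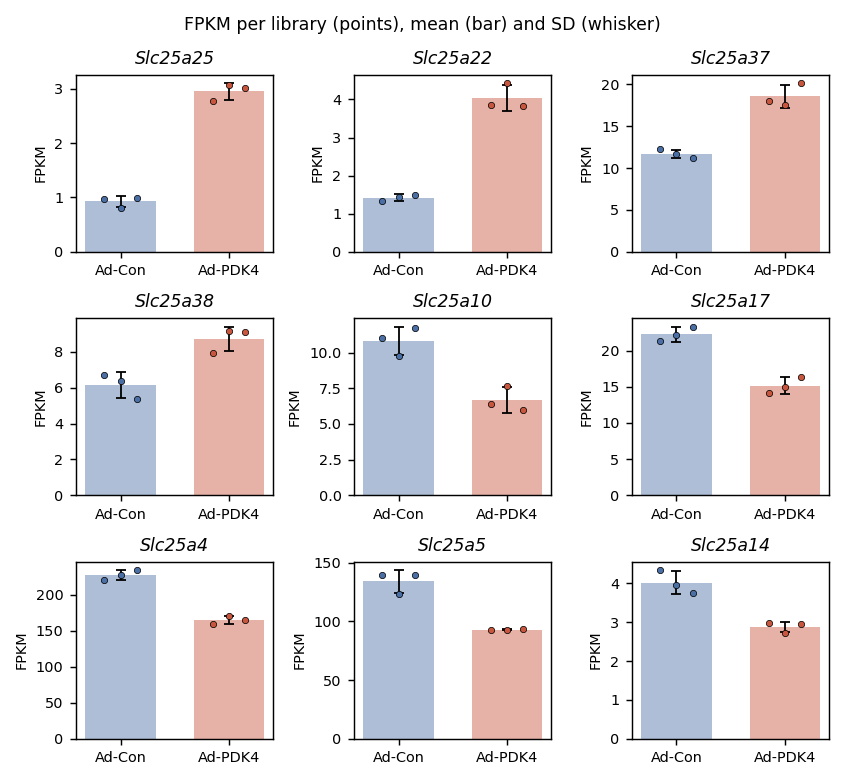
FPKM in each library (points), group mean (bar) and SD (whisker, n = 3) of 9 called Slc25a genes, each on its own linear axis from 0. The 4 genes that rose, Slc25a25, Slc25a22, Slc25a37 and Slc25a38, have every Ad-PDK4 point above every Ad-Con point, and the 5 others every Ad-PDK4 point below.

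Of the carriers of di- and tricarboxylates and acylcarnitine, 4 of 5 were tested, 2 were lower and 2 were not called, beside 20.8% of all genes tested called lower. The sum of these carriers went from 141 ± 5.01 to 115 ± 2.96 FPKM (SD, n = 3). Slc25a10, the dicarboxylate carrier that exchanges malate or succinate for phosphate (chr11:120491840-120499187, plus strand), read 11.0, 9.74 and 11.7 FPKM in the Ad-Con libraries and 6.39, 7.67 and 5.98 FPKM in the libraries labelled Ad-PDK4. Its groups lay apart, and it fell by 0.69 on the log2 scale (SE 0.11, adjusted p = 0.00154, limma), the largest fall among members above 1 FPKM. Slc25a11, the oxoglutarate carrier of the malate-aspartate shuttle (chr11:70644196-70647479, minus strand), read 47.9, 51.4 and 50.2 FPKM against 35.4, 37.8 and 36.8 FPKM. All libraries labelled Ad-PDK4 were lower, with a log2 fold change of -0.44 ± 0.05 (SE) and an adjusted p of 0.000334 in limma. Some 8.92% of its exon bases lie under Rnf167 on the other strand, which fell by 0.36 on the log2 scale (adjusted p = 0.00114, limma).

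Slc25a1, the citrate carrier that exports the carbon for fatty acid and sterol synthesis, read 69.7, 75.3 and 69.0 FPKM in the Ad-Con libraries and 64.8, 65.9 and 62.1 FPKM in the libraries labelled Ad-PDK4. Its groups did not overlap, but the log2 fold change of -0.15 ± 0.05 (SE) missed the threshold with an adjusted p of 0.0512 in limma, and 5 of 16 other settings called it lower. Slc25a20, which exchanges acylcarnitines for carnitine, had a log2 fold change of -0.26 (95% interval -0.51 to -0.01, adjusted p = 0.0909, limma) with overlapping groups, and 18.03% of its longest transcript matched other genes. Slc25a21, the oxodicarboxylate carrier, had 0 reads in all 6 libraries, where a count of 0 allows up to 3 reads per library.

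Among amino acid carriers 7 of 9 were tested, with 2 higher, 1 lower and 4 not called. All genes tested had 21.8% called higher and 20.8% called lower. The sum of this class was 41.4 ± 0.0713 FPKM in Ad-Con and 44.5 ± 1.58 FPKM in the libraries labelled Ad-PDK4, and its part of the family went from 4.49 to 5.85%. Slc25a22, the carrier that brings glutamate into the matrix (chr7:141429744-141437892, minus strand), read 1.33, 1.43 and 1.5 FPKM in the Ad-Con libraries and 3.86, 4.43 and 3.84 FPKM in the libraries labelled Ad-PDK4, on 150 to 508 reads. It rose with a ratio of mean FPKM of 2.85, a log2 fold change of 1.45 ± 0.10 (SE) and an adjusted p of 2.86e-05 in limma. The annotation shows no other gene over its exons and no shared sequence at the identity searched. The other glutamate carrier gene, Slc25a18, had 16, 23 and 6 reads in the Ad-Con libraries and 6, 12 and 5 reads in the others, too few for the test, and its share of the pair was 22.2 ± 11.1% and 4.92 ± 2.31% (SD, n = 3) without overlap (exact two-sided permutation test, p = 0.1, adjusted p = 0.2). Some 1.68% of the exon bases of Slc25a18 lie under Atp6v1e1 on the other strand. Atp6v1e1 had a mean of 47.05 FPKM and differed by -0.23 on the log2 scale (adjusted p = 0.00916, limma). Whether reads of Slc25a18 came from Atp6v1e1 was not tested.

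The upstream sequence of Slc25a22 is shown because it holds 1 of the 2 matches to the interferon-stimulated response element in the family. It precedes the RefSeq start at position 141435375 of chromosome 7, which lies 2499 bases downstream of the first of 3 starts, and covers chr7:141435398-141435625 on the minus strand (GRCm38.p6, 228 bases, 57.5% G and C). Capitals mark that element, read here on the other strand and beginning 79 bases before the start, and a CCAAT box beginning 32 bases before it.
Slc25a22: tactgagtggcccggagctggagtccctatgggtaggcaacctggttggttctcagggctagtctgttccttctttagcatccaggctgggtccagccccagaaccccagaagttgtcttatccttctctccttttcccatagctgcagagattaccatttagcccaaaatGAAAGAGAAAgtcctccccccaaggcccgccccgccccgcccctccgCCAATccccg

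Slc25a38, a glycine carrier needed for the first step of heme synthesis (chr9:120110374-120124504, plus strand), read 6.71, 6.39 and 5.34 FPKM in the Ad-Con libraries and 7.94, 9.15 and 9.10 FPKM in the libraries labelled Ad-PDK4. It rose by a log2 fold change of 0.50 ± 0.10 (SE, adjusted p = 0.00512, limma). Slc25a12, an aspartate/glutamate carrier of the malate-aspartate shuttle (chr2:71271063-71367749, minus strand), was lower, with a mean of 7.64 ± 0.385 FPKM in Ad-Con and 6.39 ± 0.277 FPKM in the libraries labelled Ad-PDK4 (SD, n = 3, log2 fold change -0.25 ± 0.07 SE, adjusted p = 0.0188, limma). Its call was lost without Ad-Con replicate 3, at a log2 fold change of -0.21, and without Ad-PDK4 replicate 1, at -0.25. The paralog Slc25a13 read 4.54 ± 0.487 and 4.01 ± 0.183 FPKM (SD, n = 3) and was not called (log2 fold change -0.17, 95% interval -0.39 to 0.05, adjusted p = 0.195, limma).

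The share of Slc25a12 in this pair of aspartate/glutamate carriers was 62.8 ± 1.71% in Ad-Con and 61.4 ± 1.71% in the libraries labelled Ad-PDK4 (SD, n = 3), with overlapping groups (exact two-sided permutation test, p = 0.6, adjusted p = 0.6). Slc25a44, a carrier of branched-chain amino acids, had 17.9 ± 0.295 and 17.7 ± 0.687 FPKM (SD, n = 3) and a log2 fold change of -0.02, with a 95% interval of -0.14 to 0.10. Its sign turned under rescaling to TPM. Slc25a15, an ornithine carrier of the urea cycle, and Slc25a29, a carrier of basic amino acids, were not called, at log2 fold changes of -0.16 and 0.50. The groups of Slc25a29 did not overlap, and its 95% interval ran from 0.02 to 0.98. Slc25a2, the second ornithine carrier gene, had at most 3 reads per library.

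Carriers of cofactors, nucleotides and glutathione were the broadest class, with all 11 members tested, 3 of them lower and 7 not called, beside 20.8% of all genes tested called lower. Slc25a17, which carries coenzyme A, FAD and NAD+ and sits in the peroxisome rather than the mitochondrion (chr15:81318911-81360812, minus strand), read 21.3, 22.1 and 23.3 FPKM in the Ad-Con libraries and 14.1, 14.9 and 16.4 FPKM in the libraries labelled Ad-PDK4. With groups far apart it fell by 0.55 on the log2 scale (SE 0.07, adjusted p = 0.000541, limma). Slc25a39, a glutathione carrier (chr11:102402985-102407946, minus strand), read 77.1, 71.1 and 73.3 FPKM against 55.7, 65.4 and 55.0 FPKM. It was lower in every library labelled Ad-PDK4, with a log2 fold change of -0.33 ± 0.07 (SE) and an adjusted p of 0.00826 in limma.

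The paralog Slc25a40 read 2.48 ± 0.237 and 2.61 ± 0.0956 FPKM (SD, n = 3) and was not called (log2 fold change 0.07, 95% interval -0.16 to 0.31). Slc25a39 thus made up 96.7 ± 0.302% of the glutathione carrier pair in Ad-Con and 95.7 ± 0.484% in the libraries labelled Ad-PDK4 (SD, n = 3), without overlap (exact two-sided permutation test, p = 0.1, adjusted p = 0.2). Slc25a51, the carrier of NAD+, had 16.8 ± 0.721 and 14.5 ± 0.427 FPKM (SD, n = 3) and fell by 0.21 on the log2 scale (SE 0.06, adjusted p = 0.0166, limma). Its call was lost without Ad-Con replicate 1, at a log2 fold change of -0.18.

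For the pyrimidine nucleotide carriers Slc25a33 and Slc25a36 the log2 fold changes were 0.13 (95% interval -0.14 to 0.40) and -0.06 (95% interval -0.23 to 0.11). Neither was called, and the share of Slc25a33 in the pair, 22.0 ± 2.41% and 24.5 ± 3.06% (SD, n = 3), overlapped between the groups (exact two-sided permutation test, p = 0.4, adjusted p = 0.6). The coenzyme A carrier Slc25a42, the folate and FAD carrier Slc25a32, the S-adenosylmethionine carrier Slc25a26 and Slc25a16 were not called either, with log2 fold changes of -0.12, 0.08, -0.18 and 0.08.

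**Figure D4:**
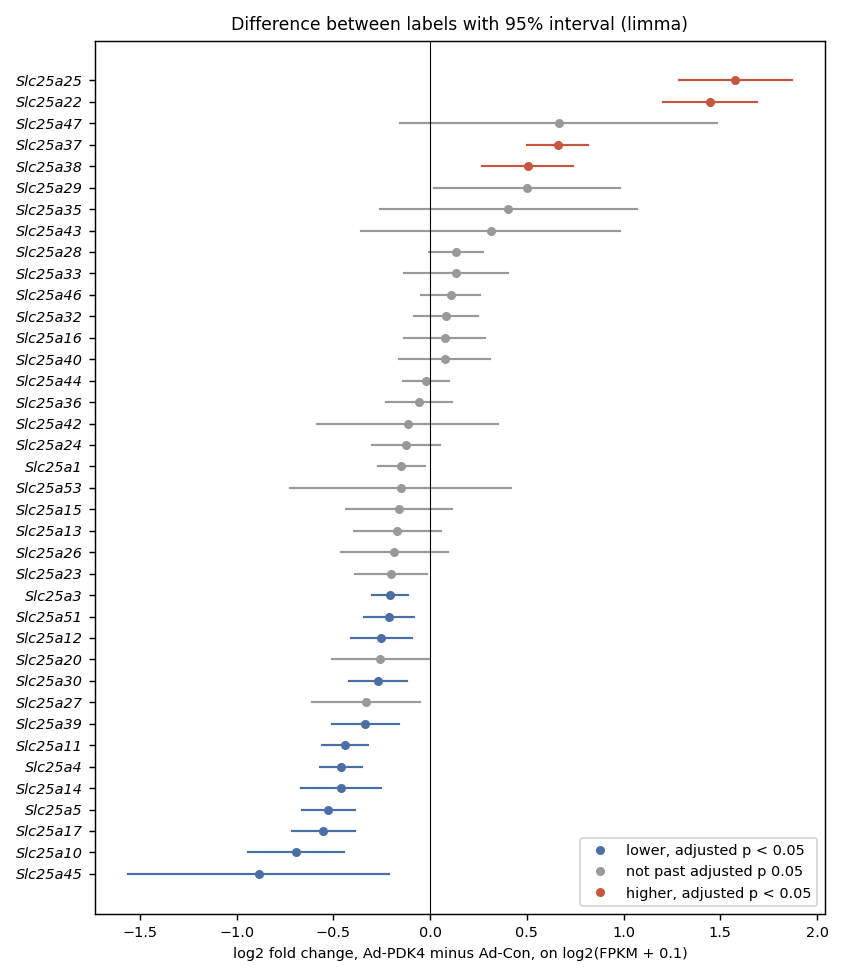
Log2 fold change (Ad-PDK4 minus Ad-Con, on log2(FPKM + 0.1), limma) of 38 of the 39 Slc25a genes tested, as points with 95% intervals, ordered by size and coloured by call. Slc25a25 and Slc25a22 lie past 1, and the widest intervals belong to members of low level such as Slc25a47 and Slc25a45.

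The mitoferrins, which import the iron used for heme and iron-sulfur clusters, had a summed FPKM of 26.7 ± 0.0918 in Ad-Con and 35.0 ± 1.02 in the libraries labelled Ad-PDK4 (SD, n = 3). Slc25a37, mitoferrin 1, best known from erythroid cells (chr14:69241848-69285112, minus strand), read 12.2, 11.7 and 11.2 FPKM in the Ad-Con libraries and 18.03, 17.55 and 20.16 FPKM in the libraries labelled Ad-PDK4. It rose by a log2 fold change of 0.66 ± 0.07 (SE, adjusted p = 0.000196, limma). Slc25a28, mitoferrin 2, the broadly expressed form, read 14.96 ± 0.492 and 16.4 ± 0.896 FPKM (SD, n = 3) and was not called (log2 fold change 0.13, 95% interval -0.004 to 0.27, adjusted p = 0.106, limma). Slc25a37 held 45.7, 43.9 and 42.1% of the pair in the Ad-Con libraries and 53.0, 50.1 and 55.9% in the others. These shares did not overlap between the groups, and the difference of 9.12 percentage points had the smallest p that the exact two-sided permutation test can give here (p = 0.1, adjusted p = 0.2). The order of the paralogs by FPKM rests on the gene lengths used. The table's length of Slc25a28, 1514 bases, is below its longest GENCODE transcript of 3724 bases, the only member of which this holds. In reads, without division by length, Slc25a37 (1227 to 2681) exceeded Slc25a28 (396 to 531) in every library of both groups. The table's length of Slc25a37 is 6021 bases, and a longer gene gathers more reads at equal abundance. Reads therefore do not settle the order of the paralogs either.

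**Figure D5:**
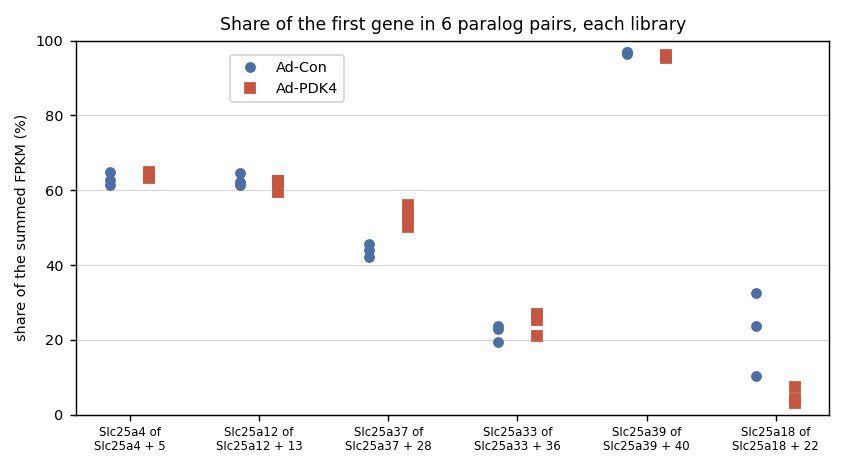
Share (%) of the first gene in the summed FPKM of 6 paralog pairs, 1 point per library (circles Ad-Con, squares Ad-PDK4, 3 each). The mitoferrin pair moved from 42.1 to 45.7% in Ad-Con to 50.1 to 55.9% in the libraries labelled Ad-PDK4, whereas the ADP/ATP carrier pair overlapped.

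The carriers related to uncoupling proteins had 2 lower calls among 3, a small count beside 20.8% of all genes tested called lower. Slc25a14, also called UCP5 (chrX:48623413-48662294, plus strand), read 4.34, 3.95 and 3.76 FPKM in the Ad-Con libraries and 2.98, 2.73 and 2.95 FPKM in the libraries labelled Ad-PDK4. It fell by 0.46 on the log2 scale (SE 0.09, adjusted p = 0.00423, limma). Slc25a30 had 14.8 ± 0.451 and 12.2 ± 0.806 FPKM (SD, n = 3) and fell by 0.27 on the log2 scale (SE 0.06, adjusted p = 0.0110, limma). Slc25a27, also called UCP4, had groups that did not overlap, at 2.87 ± 0.342 and 2.25 ± 0.204 FPKM (SD, n = 3), but missed the threshold (log2 fold change -0.33, 95% interval -0.61 to -0.05, adjusted p = 0.0562, limma).

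Among 8 other carriers, most of them without a settled substrate, 6 were tested and Slc25a45 was the one called. Slc25a45 (chr19:5877808-5885766, plus strand) read 0.964, 0.752 and 0.791 FPKM in the Ad-Con libraries and 0.435, 0.539 and 0.273 FPKM in the libraries labelled Ad-PDK4, on 16 to 52 reads. It fell by 0.89 on the log2 scale (SE 0.29, adjusted p = 0.0403, limma), the largest fall among the members tested. Its mean was 0.836 FPKM in Ad-Con and 0.416 FPKM in the libraries labelled Ad-PDK4. Slc25a45 thus passed the limit of 0.5 FPKM only through the group where it was higher. The call was lost without any 1 of Ad-Con replicates 1, 2 and 3 and Ad-PDK4 replicates 1 and 3. The log2 fold changes were then -0.79, -0.95, -0.92, -0.93 and -0.67 in that order. Slc25a46, which lies in the outer membrane, read 14.2 ± 0.517 and 15.3 ± 1.05 FPKM (SD, n = 3) and was not called (log2 fold change 0.11, 95% interval -0.05 to 0.26). Slc25a47 read 0.494, 0.458 and 0.499 FPKM in the Ad-Con libraries and 0.442, 1.21 and 1.02 FPKM in the libraries labelled Ad-PDK4, so that 1 library of the second group lay below all of the first (log2 fold change 0.66, adjusted p = 0.168, limma). Without that library, Ad-PDK4 replicate 1, its log2 fold change was 1.05 and passed the threshold. The Ad-Con mean of Slc25a47, 0.4835 FPKM, lay under the limit of 0.5 FPKM, which the gene passed only through the other group.

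Slc25a43, Slc25a53 and Slc25a35 were not called, at log2 fold changes of 0.31, -0.15 and 0.40, and 31.3% of the exon bases of Slc25a35 lie under Rangrf on the other strand. Slc25a34 had at most 8 reads and Slc25a48 at most 4 reads per library. Of the 22 members not called, 14 had a 95% interval within 0.5 of 0 on the log2 scale and 2 an interval that reached past 1, the size of a 2-fold difference.

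Some members lie next to each other in the genome. The gene bodies of Slc25a29 and Slc25a47, on opposite strands of chromosome 12, lie 162 bases apart in the annotation, and neither was called. Slc25a43 and Slc25a5 lie 18448 bases apart on the X chromosome, of which Slc25a5 fell and Slc25a43 was not called. Slc25a41 and Slc25a23 lie 2056 bases apart on chromosome 17, and Slc25a54 and Slc25a24 lie 6461 bases apart on chromosome 3, in each case a member with at most 3 reads beside one of over 10 FPKM.

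Genes that work with these carriers were read from lists of related function. The counts of these lists stand beside 21.8% of all genes tested called higher and 20.8% called lower. The median log2 fold change of all genes tested was -0.003. Of 5 proteins with the carrier fold but other symbols, Mtch1, an outer membrane protein, fell (log2 fold change -0.35, adjusted p = 0.00304, limma), Mtch2 was not called at 0.01, and Ucp1, Ucp2 and Ucp3 were under the filter. Ucp2, not tested for that reason, read 0.499, 0.587 and 0.505 FPKM in the Ad-Con libraries. In the libraries labelled Ad-PDK4 it read 0.0865, 0.0818 and 0.0713 FPKM, without overlap and on 10 to 72 reads over both groups. Ucp1 had at most 1 read and Ucp3 at most 5 reads per library. Of 19 genes for other transport across the mitochondrial membranes, all tested, 3 were higher and 8 were lower, with a median log2 fold change of -0.11. The largest falls were Sfxn4 (-1.15), Sfxn5 (-0.64) and Sfxn1 (-0.55), sideroflexins of which Sfxn1 imports serine, and the rises were Letm1 (0.48), Sfxn2 (0.38) and Vdac3 (0.26). The call of Sfxn2 (adjusted p = 0.0498, limma) held in 5 of 15 other settings and was lost without Ad-Con replicate 1 or 3 or any library labelled Ad-PDK4 (log2 fold changes of 0.27 to 0.45), and that of Sfxn5 was lost without Ad-Con replicate 1 (-0.65) or 3 (-0.61). Both subunits of the pyruvate carrier were called lower, Mpc1 at 3.26, 3.64 and 4.24 FPKM against 2.90, 2.50 and 2.98 FPKM and Mpc2 at 6.29, 6.51 and 6.27 FPKM against 5.28, 5.07 and 5.73 FPKM (adjusted p = 0.0315 and 0.0257, limma). The call of Mpc1 held in 9 of 15 other settings and was lost without Ad-Con replicate 2 or 3 or Ad-PDK4 replicate 1 or 2 (log2 fold changes of -0.42 to -0.30). That of Mpc2 held in 9 of 16 and was lost without any Ad-Con library or Ad-PDK4 replicate 1 or 2 (-0.25 to -0.20).

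The pathway that inserts carriers into the inner membrane had 13 genes, all tested, with 3 higher, 2 lower and a median log2 fold change of -0.006. The rises were Timm29 (0.53) and Timm22 (0.36), both of the carrier translocase, and the intermembrane space chaperone Timm8a1 (0.32), and the falls were Timm8b (-0.31) and the import receptor Tomm20 (-0.20). Leaving out a library ended the calls of Timm22 (without Ad-Con replicate 2, 0.30), Timm8a1 (without Ad-Con replicate 1 or 2 or Ad-PDK4 replicate 1, 0.25 to 0.30), Tomm20 (without Ad-Con replicate 2 or 3 or Ad-PDK4 replicate 1, -0.20 to -0.17) and Timm8b (without any library but Ad-Con replicate 1, -0.33 to -0.25). Of 35 enzymes that make or use the substrates of the carriers 27 were tested, of which 7 were higher and 13 lower, with a median log2 fold change of -0.08. Rises among these were Mthfd2 of the mitochondrial folate pathway (0.74) and Aldh18a1 of proline synthesis (0.24). The call of Aldh18a1 (adjusted p = 0.0487, limma) held in 5 of 16 other settings and was lost without any 1 of the 6 libraries (log2 fold changes of 0.16 to 0.28). The largest falls were Aldh1l2 (-0.66), Pycr1 (-0.65) and Cpt2 (-0.44). For the malate-aspartate shuttle, Got2, Mdh1 and Mdh2 were called lower, at log2 fold changes of -0.19, -0.21 and -0.16, and Got1 rose (0.22, adjusted p = 0.00950, limma). The call of Mdh2 held in 7 of 16 other settings and was lost without any library but Ad-PDK4 replicate 2 (-0.17 to -0.13), that of Got2 held in 13 and was lost without Ad-Con replicate 1 (-0.17) or 3 (-0.17), and that of Mdh1 held in 15 and was lost without Ad-Con replicate 3 (-0.18). Glud1, which consumes matrix glutamate, fell (-0.28, adjusted p = 0.00217, limma) beside the rise of the glutamate carrier Slc25a22. Beside the rise of Slc25a37, Iscu rose, and Nfs1, Fech and Alas1 fell, at log2 fold changes of 0.22, -0.33, -0.23 and -0.20. The call of Iscu was lost without Ad-Con replicate 3 (0.19), and that of Alas1 without Ad-Con replicate 3 (-0.19) or Ad-PDK4 replicate 1 (-0.20).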

How the data were processed

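RNA sequencing measured gene expression in 6 libraries, grouped by their treatment label and numbered by their titles. The deposited values were FPKM from the authors, with a separate column for each library and no pooled libraries. Their scaling was shared, since the library sizes behind them had been set over all 6 libraries together. The table gave GRCm38 coordinates, and 98.3% of the 54409 genes matched to GENCODE release 21 had the same ones. The submitters' processing notes nonetheless list GRCm39. These notes name CASAVA 1.8, fastp, HISAT2 2.0.5, featureCounts 1.5.0-p3 and DESeq2 1.20.0. The strand setting of the counting was not given in the sources used here, and the labels and the study's methods name different library kits. FPKM times gene length gave whole reads for 100% of the non-zero values within 0.01 reads, with 17588942 to 21861872 reads per library and 1 read in 1 kb worth 0.0453 to 0.0571 FPKM, so counting error is largest for members with few reads.

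The scale of the tests was log2(FPKM + 0.1), fitted in limma 3.58.1 (trend and robust, R 4.3.3) over all 6 libraries without covariates, with Benjamini-Hochberg adjustment over 13423 genes whose mean reached 0.5 FPKM, and called at an adjusted p below 0.05. The working of the fit was tried on simulated reads with known changes. These had the same dispersion for all genes and far fewer changed genes than were called here. The trial therefore does not measure the error rate of the calls. FPKM is not a count, so no count model was the main test. Adjusted p-values are limma's, apart from those of the exact permutation test of a paralog share, which were adjusted over 6 pairs. Sums and medians of the family carry no test. Full values are given for the 8 largest rises and falls among called members, the 6 most abundant members and the members of the 6 pairs, and in related lists the 3 largest rises and falls are named. Mtch2, Mpc1, Mpc2, Got1, Got2, Mdh1, Mdh2, Glud1, Iscu, Nfs1, Fech and Alas1 are named beyond this rule, picked with their values in view. The values of some genes are not reported here, though counts and sums include them. The members and the lists were chosen with earlier results of these data known.

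Overlaps of exons came from GENCODE release 21, shared sequence from blastn 2.17.0+ (at least 95% identity over 100 bases or more) and promoters from RefSeq (GRCm38.p6). Alternatives were pseudocounts of 1 and 0.01, no filter, a minimum mean of 5 FPKM, TPM, quantile normalization, median-of-ratios scaling, limma without trend and robust, a block for the replicate number, voom in limma on the recovered reads and leaving out each library. The FPKM already carried median-of-ratios scaling, so that setting nearly repeats the main fit. The voom setting used the library sizes behind the FPKM, so neither setting tests this scaling. Same-numbered libraries did not deviate together (correlations of -0.046, -0.031 and -0.0013), so the numbers were not taken to pair them.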

Additional observations from a re-analysis of the deposited data

How the results depend on the processing

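Of the 607 fold changes of members under alternatives, 572 kept their direction and their side of the threshold, 14 passed it, 17 missed it and 4 turned. The 17 belonged to 4 members, among them Slc25a45, Slc25a12 and Slc25a51, and the other 13 called members kept their call in every alternative run. Higher members numbered 3 under the limit of 5 FPKM on the mean and 4 to 6 over the settings that leave out a library, and lower members 10 to 14 over the latter. With the replicate block, 4 members were higher and 11 lower, and the block moved no count by over 1.5 times. It ended the calls of 2 members, among them Slc25a45. The median log2 fold change of the members was -0.11 without a filter, -0.21 at a mean of at least 5 FPKM, -0.11 in TPM and -0.15 to -0.11 when a library was left out. Slc25a44 turned to 0.0201 in TPM, and over the settings that leave out a library it ran from -0.0493 to 0.0064, Slc25a42 from -0.34 to 0.0597 and Slc25a53 from -0.31 to 0.0267. None of these 3 was called in any of the settings named. The difference in the summed level was -452 TPM after rescaling to TPM, -101 FPKM without Slc25a4, and -171 to -155 FPKM when a library was left out, beside -163 FPKM. On recovered reads, without division by gene length, the share of Slc25a37 in its pair differed by 6.08 percentage points, that of Slc25a39 by -2.71 and that of Slc25a18 by -6.98, since the paralogs differ in length, and Slc25a37 then exceeded Slc25a28 in every library. Such reads do not rank paralogs of unlike length by abundance. Members with few reads, such as Slc25a45 and Slc25a47, carry the widest intervals.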
